A study of Mus musculus with 6 samples.

Results

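The proteasome genes of mouse quadriceps were described in wild-type animals and in animals lacking estrogen receptor alpha in muscle. Genes were taken as every symbol of the deposited table that starts with Psma, Psmb, Psmc, Psmd, Psme or Psmf followed by a digit, leaving out symbols marked as pseudogenes. This gave 44 of the 37477 Ensembl genes in the table. One of them, Psmc3ip, encodes a meiotic recombination protein named for its binding to Psmc3 and is no subunit, so 43 proteasome genes remained. They fell into 7 alpha and 7 constitutive beta subunits of the 20S core, 2 immunoproteasome subunits, 2 core subunits known from testis and thymus, 6 ATPases and 11 other subunits of the 19S cap, 3 chaperones of cap assembly, and 5 activators or inhibitors. Psmb9, the other immunoproteasome subunit, has no row under that symbol and was not analysed here.

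RNA was measured by sequencing quadriceps, the big extensor muscle of the knee, from C57BL/6 mice aged 20 weeks. The 3 wild-type (WT) libraries were compared with 3 libraries of muscle-specific estrogen receptor alpha -/- mice, called MERKO in the design text and KO here. The promoter that drives the deletion, the part of the gene deleted and the sex of the mice were not given in the sources used here. Nothing in the labels ties a library to a single animal, and p-values therefore measure only the spread between these libraries. Values of a gene are listed in the order of replicates 1, 2 and 3.

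The proteasome is the cell's main machine for breaking down proteins tagged with ubiquitin. Its core is a barrel in which outer rings of alpha subunits form the gate and inner rings of beta subunits hold the cutting sites. The cap binds ubiquitin, removes it, and unfolds the protein with its ring of ATPases. Interferon and immune cells replace the cutting subunits by immunoproteasome forms, which favour peptides for display to T cells. In skeletal muscle the pathway is known for the turnover of contractile proteins and for their loss in wasting.

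Libraries held 7388365 to 8560244 counts, and the 44 genes took between 0.244% and 0.272% of them. Esr1, the targeted gene, had 50, 41 and 44 counts in the WT libraries against 22, 16 and 16 in the KO libraries. Every KO library lay below every WT library, with a log2 difference of KO from WT of -1.45 ± 0.23 (SE) and an adjusted p of 0.145 in edgeR's quasi-likelihood test over 13848 genes. Whether the counts of Esr1 come from the deleted stretch was not tested. Skeletal muscle fibre markers were present in every library: Acta1, skeletal actin, stood between 13626 and 17038 CPM (counts scaled to a common library size). Myh4, the lowest of the 10 markers, stood between 194 and 587 CPM. Of the 10 markers 6 had a log2 difference above 0 and 4 below, and 0 passed. In Myh1 (0.36) and Ckm (0.11) all KO values stood above all WT values, beside 4.96% of all genes. In Myh2 (-0.15) all KO values lay below, beside 5.45%. These were named after their values were seen, and fibre makeup was not tested. Over all genes edgeR's quasi-likelihood test called 0 genes at an adjusted p under 0.05, 0% of those tested, while 590 had an unadjusted p under 0.05. DESeq2 called 2 and limma voom called 1. In bulk muscle, fewer cells of a type and less RNA per cell cannot be told apart.

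Levels of the proteasome genes were first compared with each other per length, as CPM per kilobase of the principal protein-coding transcript. Psmd4, a ubiquitin receptor of the cap, had the highest level of the 43, with 98.4, 102 and 98.7 CPM per kilobase in the WT libraries against 97.7, 99.1 and 107 in the KO libraries. The groups overlapped. Psmb7, the core subunit with trypsin-like cutting, came next at 91.0 as the mean of all 6 libraries, followed by the core subunit Psmb4 at 87.1 and the cap ATPase Psmc3 at 86.9. Each of these 4 genes overlapped its neighbour in this order over the range of the 6 libraries.

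The 14 constitutive core subunits had a median level of 50.6 CPM per kilobase over all libraries, and the 17 cap subunits 44.4. Core subunits spanned 6.87 for Psma3 to 91.0 for Psmb7, though the finished barrel holds each in equal number. Cap subunits spanned 13.0 for Psmd11, a lid subunit, to 100.4 for Psmd4. The level depends on the gene model. With the merged exons of each gene as the length, a choice added after seeing the data, the medians were 24.3 for the core and 27.5 for the cap, so that their order turned, and Psmc3 took the first place.

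The 3 cap assembly chaperones, which leave the finished particle, were low. Psmd5 stood at 6.44, Psmd10 at 4.87 and Psmd9 at 4.498 CPM per kilobase over all libraries. Among the activators, which open the barrel in place of the cap, Psme4 (PA200) stood far above the rest, at 36.3. Psme1 of the PA28 ring stood at 14.5 and Psme3, the nuclear PA28 subunit, at 7.51. Psmf1, which binds the core and is known as an inhibitor, stood at 3.39. Psme2, the partner of Psme1, stood at 1.26, a level that is uncertain because of a near-identical copy described below.

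**Figure D1:**
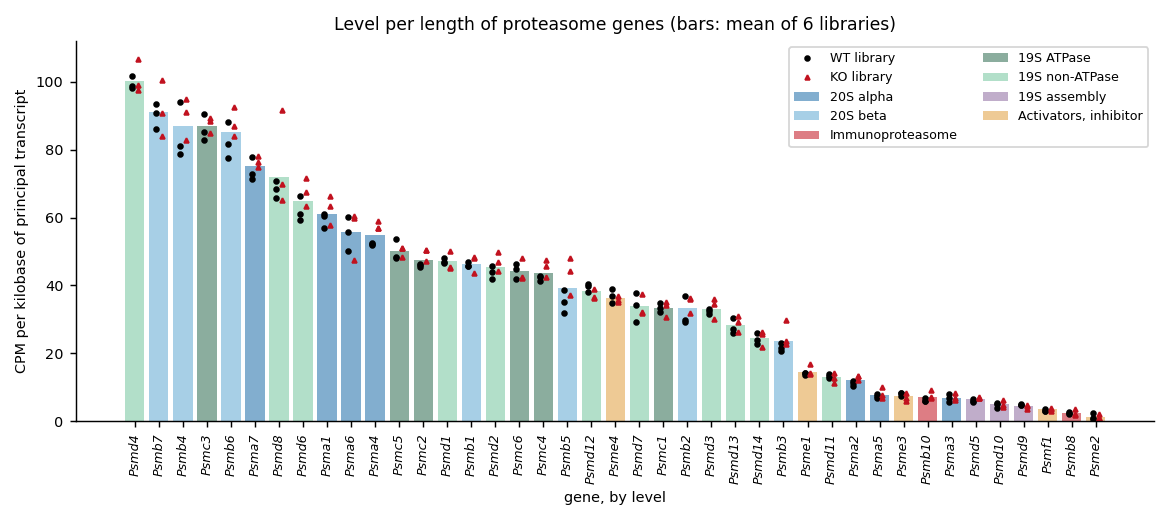
Level of each proteasome gene as CPM per kilobase of principal transcript (y axis, linear), ordered by level. Bars are the mean of all 6 libraries, dots the 3 WT and triangles the 3 KO libraries. Psmd4 stood at 100.4, Psmb8 at 2.45 and Psme2, the lowest drawn, at 1.26. WT and KO points lay close together for most genes. The 2 core genes of testis and thymus are not drawn.

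The first comparison asked whether proteasome genes differed between the genotypes. No proteasome gene passed the test: 3 of the 43 had too few counts to be tested, and 0 of the 40 tested passed an adjusted p of 0.05 in edgeR's quasi-likelihood test, where 0% of all genes passed. DESeq2 and limma voom also called 0 of them. The lowest adjusted p of any proteasome gene was 0.989. At an unadjusted p under 0.05 there were 2 of the 40, Psmb5 and Psma2, beside 4.26% of all genes. Both were higher in KO and 0 were lower; over all genes, 1.99% had such a p and were higher, and 2.27% had it and were lower. The 95% interval of the log2 difference lay within a 1.5-fold change either way for 38 of the 40, beside 65.5% of all genes tested. The 2 exceptions were Psmb8 and Psmb10.

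Small differences pointed upward more often than over all genes. Of the 40 genes 32 had a log2 difference above 0 and 8 below, beside 49.3% of all genes above 0. The median log2 difference was 0.06, against 0.00 over all 13848 genes. This is a count and a median, not a test, and the genes share their libraries. Without KO replicate 1 the median was 0.10 with 33 genes above 0, and without WT replicate 3 it was 0.03 with 28 above 0. Without KO replicate 2, 26 of 41 were above 0.

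Gene length moved with the difference. The Spearman correlation of log2 difference with merged exon length came to -0.186 over 13224 genes, and genes are no independent replicates. Proteasome genes had a median merged exon length of 2884.5 bases, against 4182 over all genes tested. With an offset for the trend on length in each library, 30 of the 40 were above 0, with a median of 0.05.

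**Figure D2:**
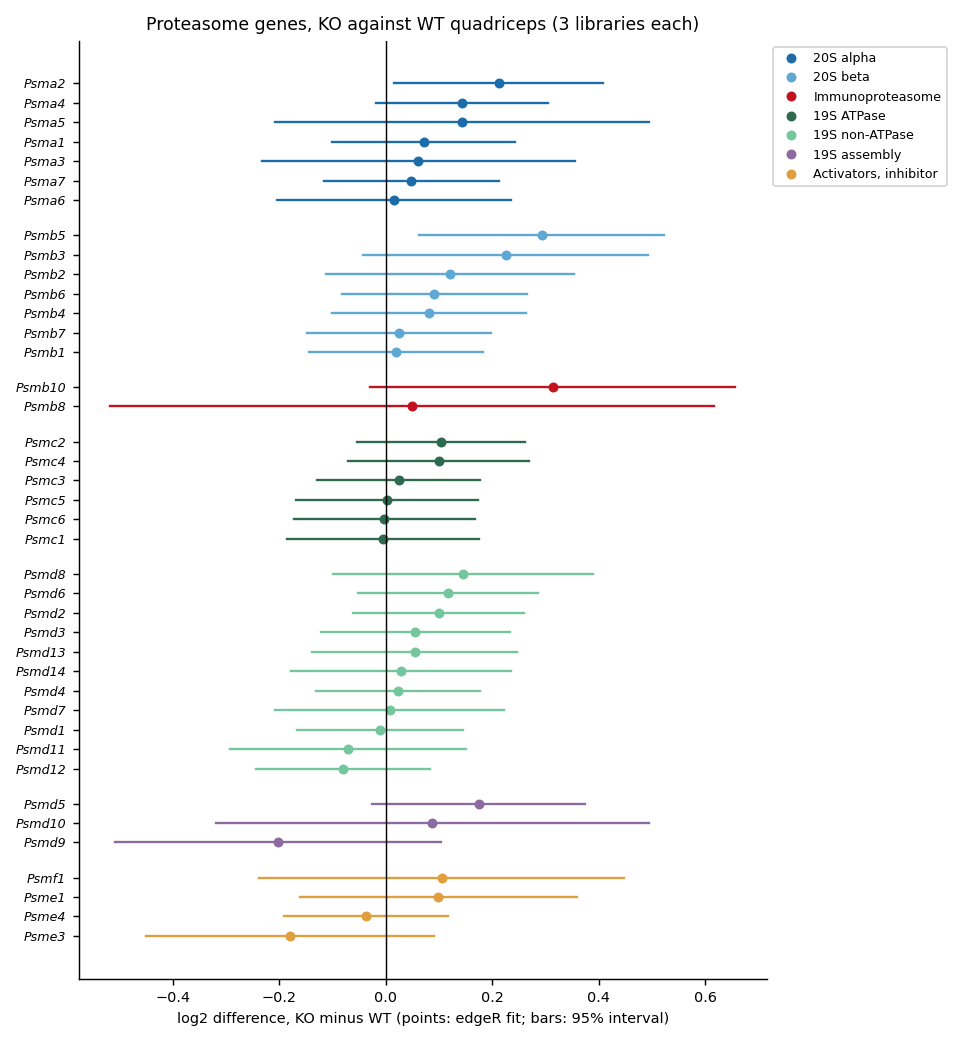
Log2 difference of KO from WT (x axis) for the 40 proteasome genes tested, grouped by role. Points are edgeR estimates and bars their 95% intervals. All 14 constitutive core subunits lie right of 0, while cap subunits and activators lie on both sides. Only the intervals of Psmb5 and Psma2 leave out 0, without adjustment for the number of genes.

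The libraries did not fall cleanly by genotype. Each gene's CPM was set against its own mean over the 6 libraries. Of the 40 genes 15 were above their mean in WT replicate 1, 21 in WT replicate 2 and 3 in WT replicate 3, and 13, 29 and 26 in KO replicates 1, 2 and 3. KO replicate 1 thus sat with the lower WT libraries, and the high side was held by KO replicates 2 and 3. Library medians on the log2 scale ran from -0.07 in WT replicate 3 to 0.07 in KO replicate 2 for the proteasome genes. Over all genes tested they were 0.00 to 0.01, taken around the mean of log2 CPM with a small constant added. The scaling of the libraries itself brings all-gene medians near 0, so they do not show that the shift belongs to proteasome genes. Summed over the 43 genes the level was 2511 ± 74.7 CPM over WT libraries, against 2594 ± 91.2 CPM over KO libraries (SD, n = 3 each), and the groups overlapped.

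**Figure D3:**
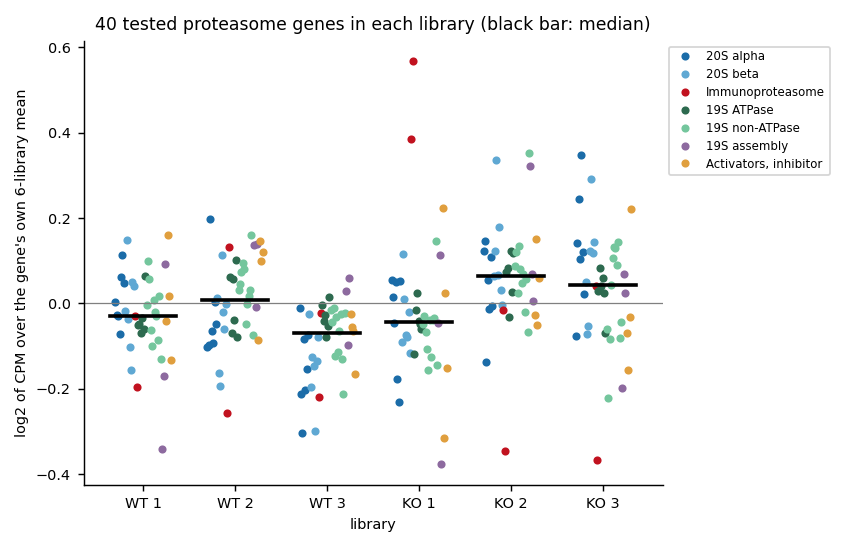
Log2 of each gene's CPM over its own mean of 6 libraries (y axis) for the 40 proteasome genes tested, by library. Black bars are medians. Medians run from -0.07 in WT replicate 3 to 0.07 in KO replicate 2, and both immunoproteasome genes stand at the top of KO replicate 1.

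Among the alpha subunits, which form the gate of the barrel and the docking face for the cap, all 7 had a log2 difference above 0, with a median of 0.07, and 0 passed. The median was 0.12 without KO replicate 1, 0.14 without KO replicate 2 and 0.13 without WT replicate 2, but 0.05 without KO replicate 3. Psma2 had the smallest unadjusted p, at 34.2, 32.5 and 30.0 CPM in the WT libraries against 35.1, 38.5 and 38.4 CPM in the KO libraries. Every KO library exceeded every WT library, with the lowest KO value close to the highest WT value. The log2 difference was 0.21 ± 0.09 (SE), with an unadjusted p of 0.0358 (adjusted p = 0.989) in edgeR's test. Psma4 followed at 60.8, 61.1 and 60.3 CPM in the WT libraries against 66.1, 66.5 and 68.7 CPM in the KO libraries. Its groups did not overlap either, and the WT spread was very narrow, at 60.8 ± 0.394 CPM (SD, n = 3). The other 5 alpha subunits overlapped between the groups, with log2 differences from 0.02 for Psma6 to 0.14 for Psma5.

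Of the 40 genes 5 had all KO values above all WT values, beside 4.96% of all genes: Psma2, Psma4, Psmb10, the ATPase Psmc2 and the chaperone Psmd5. Psmd9, another assembly chaperone, was the 1 gene with all KO values below all WT values, beside 5.45% of all genes. It stood at 12.5 ± 0.344 CPM over WT libraries, against 10.9 ± 1.62 CPM over KO libraries (SD, n = 3 each). Exons of another gene overlap 25.5% of its exonic bases, and the labels name no stranded kit, so that reads of both genes cannot be told apart. Psmd5 stood at 26.6 ± 1.497 CPM over WT libraries, against 30.0 ± 0.537 CPM over KO libraries (SD, n = 3 each).

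The constitutive beta subunits hold the cutting sites. All 7 had a log2 difference above 0, with a median of 0.09, and 0 passed. The median was 0.14 without WT replicate 1, and it was 0.05 without WT replicate 3 or without KO replicate 3. Psmb5 carries the chymotrypsin-like site, the target of proteasome inhibitor drugs. It lies on the minus strand of chromosome 14 (mm10, 54614119 to 54618022). Psmb5 had the smallest unadjusted p of the 40, at 31.6, 34.7 and 28.6 CPM in the WT libraries against 33.4, 39.9 and 43.1 CPM in the KO libraries. KO replicate 1 fell within the WT range, and the other two KO libraries stood above it. Its log2 difference was 0.29 ± 0.11 (SE), with a 95% interval from 0.06 to 0.52 and an unadjusted p of 0.016 (adjusted p = 0.989) in edgeR's test. The level was above the WT mean in 3 of 3 KO libraries. A microRNA gene, Mir686, overlaps 12.1% of its exonic bases.

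Psmb6, the caspase-like site, was at 70.3, 65.2 and 61.9 CPM in the WT libraries against 67.0, 69.5 and 73.8 CPM in the KO libraries, so that the groups overlapped. Psmb7 was at 108.5, 105.4 and 100.02 CPM in the WT libraries against 97.4, 105.4 and 117 CPM in the KO libraries. KO replicates 1 and 3 were the lowest and the highest of all 6, and the log2 difference was 0.02 ± 0.08 (SE). Of the non-catalytic beta subunits, Psmb3 had the smallest p, with 17.5, 15.7 and 16.5 CPM in the WT libraries against 18.1, 22.7 and 17.3 CPM in the KO libraries. Psmb2 followed at 27.4 ± 3.75 CPM over WT libraries, against 29.8 ± 2.22 CPM over KO libraries (SD, n = 3 each), with overlapping groups.

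Proteasome genes are known targets of the factor Nfe2l1, which binds antioxidant response elements, so promoter windows of 250 bases before to 50 bases after the start were searched on both strands for TGACNNNGC. RefSeq windows of GRCm38.p6, the assembly that mm10 names, matched 36 of the 43 genes with 39 windows. Psmb7 was among the 7 genes without a window. The motif stood in 6 of these windows, 15.4%, and in 12.4% of all 32851 windows. The palindromic estrogen response element was found in 0 of the 39 windows and in 23 of all windows. TTCNNNGAA, the core of the gamma-interferon activated site, stood in 2 of the 39 windows, 5.13%, and in 8.30% of all windows. The 2 genes were Psmb8 and Psmd2. A match is a description of letters and not a bound site. Shown are the TGACNNNGC matches nearest the start of 2 catalytic subunits and of Psme4, the activator with the highest level. Each is on its gene's strand, with the motif or its complement in capitals. They lie at chr14:54618024-54618052 (minus), chr11:70525338-70525366 (plus) and chr11:30771758-30771786 (plus).

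Psmb5: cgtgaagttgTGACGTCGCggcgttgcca

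Psmb6: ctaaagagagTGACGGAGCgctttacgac

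Psme4: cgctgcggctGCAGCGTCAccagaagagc

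The motif began 47 bases before the start in Psmb5, 9 before it in Psmb6 and 7 before it in Psme4, where it is on the opposite strand. The log2 differences of these genes were 0.29, 0.09 and -0.04 in this order. The motif also stood in windows of Psmc6, Psmd12 and Psmd9, with log2 differences of -0.00236, -0.08 and -0.20. The 6 genes with this motif lay on both sides of 0, and the motif was nearly as common over all windows. These directions are given as values, and a part of Nfe2l1 in them was not tested. Nfe2l1 itself was abundant, at 596, 675 and 713 CPM in the WT libraries against 617, 679 and 699 CPM in the KO libraries. Its groups overlapped, with a log2 difference of 0.01. These values are of its RNA alone, and the activity of the protein was not measured.

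The immunoproteasome subunits replace their constitutive partners when a new core is built, Psmb8 in place of Psmb5 and Psmb10 in place of Psmb7. Both were low in this muscle. Psmb8, on the plus strand of chromosome 17 (mm10, 34197721 to 34201454), had 26, 32 and 31 counts in the WT libraries against 50, 26 and 25 in the KO libraries. KO replicate 1 was the highest of the 6 libraries, and the other two KO libraries were the lowest by CPM. The log2 difference was 0.05 ± 0.27 (SE). Without KO replicate 1 it was -0.33, and the direction turned, with an adjusted p of 0.893 in edgeR's test. Exons of Gm20496 overlap 14.7% of the exonic bases of Psmb8.

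Psmb10, on the minus strand of chromosome 8 (mm10, 105935735 to 105938444), was at 8.97, 7.66 and 7.86 CPM in the WT libraries against 12.0, 9.06 and 9.41 CPM in the KO libraries. Every KO library exceeded every WT library, with KO replicate 1 highest and KO replicate 2 close to WT replicate 1. Its log2 difference was 0.31 ± 0.16 (SE), the largest of the 40, with an unadjusted p of 0.0703 (adjusted p = 0.989) in edgeR's test. Without KO replicate 1 it was 0.18, with an adjusted p of 0.920 in edgeR's test, and Psmb5 was then larger, at 0.39.

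Relative to their partners per length, Psmb8 stood at 6.87% ± 0.749 of Psmb5 in WT and 6.04% ± 3.26 in KO (SD, n = 3 each). In the KO libraries the share was 9.79% in replicate 1, 4.35% in replicate 2 and 3.97% in replicate 3. Its KO values thus lay on both sides of the WT range, and without KO replicate 1 the KO mean was 4.16%. Psmb10 stood at 6.90% ± 0.448 of Psmb7 in WT and 8.54% ± 2.03 in KO (SD, n = 3 each), again with the highest share, 10.9%, in KO replicate 1. Groups overlapped for both shares.

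Other genes of antigen processing and interferon response were highest in the same library. In a list of 12 such genes, 9 had their highest level in KO replicate 1, beside 18.3% of all genes tested. Of the proteasome genes 5 of 40 did. Tap1, which pumps peptides into the endoplasmic reticulum, was at 4.96, 3.69 and 3.68 CPM in the WT libraries against 7.81, 3.75 and 4.09 CPM in the KO libraries. Nlrc5, a factor that switches on class I antigen presentation, was at 2.95, 1.64 and 2.79 CPM in the WT libraries against 6.15, 1.45 and 1.86 CPM in the KO libraries. In both of these genes, chosen after their values were seen, KO replicate 1 stood alone and the other libraries overlapped. Of the 12 genes 8 had a log2 difference above 0 and 4 below, and 0 passed.

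Immune cell markers were read beside these values. The 11 macrophage markers summed to 124 to 167 CPM in WT and 154 to 172 CPM in KO, with KO replicate 1 the lowest of the KO libraries and no marker at 0. Mrc1, the mannose receptor of macrophages, was at 21.7, 15.5 and 26.0 CPM in the WT libraries against 27.9, 26.9 and 29.5 CPM in the KO libraries. Its groups did not overlap, with a log2 difference of 0.41 and an unadjusted p of 0.0162 (adjusted p = 0.989) in edgeR's test. It was named after its values were seen. Of the 11 macrophage markers 8 had a log2 difference above 0 and 3 below, among them Cd68 at -0.36, and 0 passed. The 10 markers of T, NK and B cells were all at 0 in at least 1 library and below 1 CPM in every library. The 7 dendritic and antigen presenting markers summed to 39.0 to 51.3 CPM in WT and 37.7 to 54.3 CPM in KO, highest in KO replicate 1, with Flt3 at 0 in 2 KO libraries. The part of cell makeup in the immunoproteasome values was not tested.

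**Figure D4:**
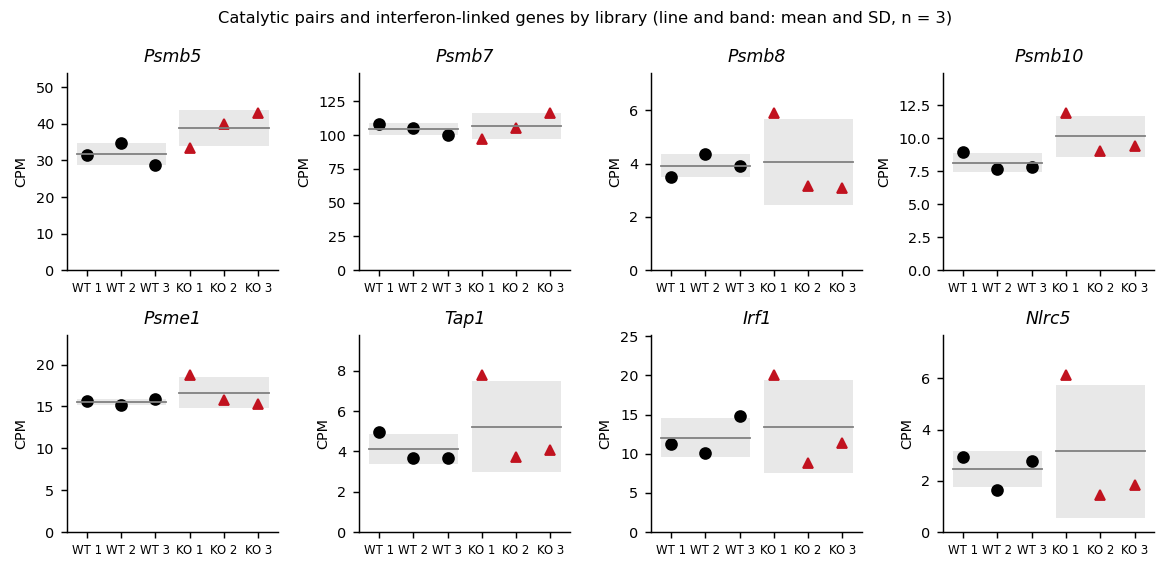
CPM (y axes from 0, each gene on its own scale) in the 6 libraries for the constitutive subunits Psmb5 and Psmb7, their immunoproteasome partners Psmb8 and Psmb10, the activator subunit Psme1, and 3 interferon-linked genes. Dots are WT and triangles KO libraries; grey lines and bands are the mean and SD of 3 libraries. Psmb8, Psmb10, Psme1, Tap1, Irf1 and Nlrc5 are highest in KO replicate 1, while Psmb5 and Psmb7 are highest in KO replicate 3.

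Cap subunits lay on both sides of 0. Of the 6 ATPases, which unfold the substrate, 4 had a log2 difference above 0 and 2 below, with a median of 0.01, and 0 passed. The median was 0.06 without WT replicate 2 and 0.04 without KO replicate 1. Psmc2 was at 82.1, 81.0 and 82.5 CPM in the WT libraries against 84.0, 90.02 and 89.9 CPM in the KO libraries. The groups did not overlap, though KO replicate 1 lay just above WT, and the log2 difference was 0.10 ± 0.07 (SE) with an adjusted p of 0.989 in edgeR's test. Psmc4 was at 60.8 ± 1.04 CPM over WT libraries, against 65.1 ± 3.69 CPM over KO libraries (SD, n = 3 each), with overlapping groups. The remaining 4 ATPases lay between -0.01 and 0.02 on the log2 scale.

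Of the 11 other cap subunits, 8 had a log2 difference above 0 and 3 below, with a median of 0.03, and 0 passed. The lid subunit Psmd6 was at 84.8, 91.9 and 82.1 CPM in the WT libraries against 87.8, 93.6 and 99.3 CPM in the KO libraries. Psmd2, a large scaffold subunit of the base, was at 135, 130 and 124 CPM in the WT libraries against 131, 139 and 147 CPM in the KO libraries. Groups overlapped for both. Psmd14, the enzyme that cuts ubiquitin off the substrate, was at 37.2 ± 2.38 CPM over WT libraries, against 38.0 ± 3.71 CPM over KO libraries (SD, n = 3 each). Psmd8 had the largest difference of this class, 0.15, with KO replicate 2 at 140 CPM, where the other libraries lay between 99.3 and 108 CPM. Psmd14 and Psmd8 were named after their values were seen. Without KO replicate 1 the median of the class was 0.11, and without KO replicate 2 it was -0.000623.

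Whether the core stood higher than the cap was not tested, since both sets come from the same libraries. In KO the core subunits summed to 790 ± 38.4 CPM against 745 ± 31.0 CPM in WT, and the cap subunits to 1463 ± 63.5 CPM against 1422 ± 34.0 CPM (SD, n = 3 each). Both pairs of sums overlapped between the groups.

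Log2 differences of activators lay on both sides of 0. Psme4 was at 239, 252 and 226 CPM in the WT libraries against 240, 228 and 231 CPM in the KO libraries, with a log2 difference of -0.04 ± 0.07 (SE). Its 95% interval ran from -0.19 to 0.12. Psme1 was at 15.7, 15.2 and 15.8 CPM in the WT libraries against 18.8, 15.8 and 15.4 CPM in the KO libraries, and was highest in KO replicate 1, like the immunoproteasome genes. Psmf1 was at 8.04, 9.57 and 7.86 CPM in the WT libraries against 7.93, 9.18 and 10.3 CPM in the KO libraries. Psme3 stood at 21.3 ± 1.73 CPM over WT libraries, against 18.8 ± 3.15 CPM over KO libraries (SD, n = 3 each). Groups overlapped for all 4 genes, and 0 passed.

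Psme2, the partner of Psme1 in the PA28 ring, had 4, 6 and 19 counts in the WT libraries against 16, 7 and 6 in the KO libraries, and was removed by the filter. A near-identical copy, listed in the table as Psme2b-ps and in GENCODE M21 as the protein-coding gene Psme2b, had 101, 104 and 103 counts in the WT libraries against 122, 115 and 130 in the KO libraries. The copy thus held 11.6 times the counts of Psme2. How reads that fit both places were counted was not given in the sources used here, so the level of Psme2 is uncertain. Psma8, the testis core subunit, had 1, 3 and 1 counts in WT and 0 in each KO library. Psmb11, the thymus core subunit, had 0 counts in all 6 libraries, where 0 allows up to 3 counts of each total, counting error only. Psmc3ip, which is no subunit, was at 3.72 ± 0.667 CPM over WT libraries, against 3.03 ± 0.486 CPM over KO libraries (SD, n = 3 each).

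Genes that build, steer or feed the proteasome were read from 5 lists. Of their 49 genes tested 27 had a log2 difference above 0, beside 49.3% of all genes, and 0 passed over all genes in edgeR's test. An unadjusted p under 0.05 was found for 2 of the 49, a share near the 4.26% of all genes, so the genes named here are given as values. The assembly chaperones had 3 genes above 0 and 2 below, and in those 3 of 5 all KO values stood above all WT values, beside 4.96% of all genes. Psmg4, which helps build the alpha ring, was at 2.68, 3.83 and 2.79 CPM in the WT libraries against 4.62, 3.99 and 5.08 CPM in the KO libraries. Every KO library exceeded every WT library, and the log2 difference was 0.56 ± 0.24 (SE) with an unadjusted p of 0.0303 (adjusted p = 0.989) in edgeR's test. Psmg1, another alpha ring chaperone, also had no overlap, with 5.49, 5.74 and 5.32 CPM in the WT libraries against 6.51, 7.97 and 6.93 CPM in the KO libraries, and a log2 difference of 0.37. Pomp, which matures the core, was the third, at 39.5, 40.5 and 41.5 CPM in the WT libraries against 41.8, 41.9 and 42.1 CPM in the KO libraries, a log2 difference of 0.05.

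Among 10 subunits and partners outside the Psm symbols, 5 stood above 0 and 5 below. In KO 1 gene stood all above WT and 1 all below, beside 4.96% and 5.45% of all genes. Fbxo7, a ubiquitin ligase subunit that binds Psmf1, averaged 9.82 ± 0.913 CPM over WT libraries (SD, n = 3), against 7.10, 7.49 and 7.43 CPM in the KO libraries. Every KO library lay below every WT library, with a log2 difference of -0.42 ± 0.15 (SE) and an unadjusted p of 0.0153 (adjusted p = 0.989) in edgeR's test. The ubiquitin receptor Adrm1 differed by 0.17 with overlapping groups.

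Transcription factors and their processing enzymes had 4 genes above 0 and 4 below. Mafk, a small Maf partner of Nfe2l1, differed by -0.17 and Mafg, another such partner, by 0.12. The ubiquitin, shuttle and p97 genes had 7 above 0 and 7 below of 14. In 2 of them all KO values stood above all WT values, beside 4.96% of all genes. Ubb, a polyubiquitin gene, was at 767 ± 5.46 CPM over WT libraries, against 823 ± 11.5 CPM over KO libraries (SD, n = 3 each), with all KO values above all WT values, and a log2 difference of 0.10 with an adjusted p of 0.989 in edgeR's test. Vcp, the p97 unfoldase, also had no overlap, averaging 168 ± 13.5 CPM in WT libraries against 180 ± 2.39 CPM in KO libraries (SD, n = 3 each). Its lowest KO value, 177.3 CPM in replicate 3, lay just above its highest WT value, 177.1 CPM in replicate 1. In the antigen processing list the smallest p belonged to the gamma-interferon receptor genes, with log2 differences of -0.22 for Ifngr1 and 0.18 for Ifngr2, both with overlapping groups.

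The authors' deposited table called 0 proteasome genes at an adjusted p under 0.05, where it called 5 of 37477 IDs, 0.0133%. In the authors' deposited table Psmb5 had a log2 fold change of 0.31 and Psma2 0.23, each with an adjusted p of 1. Of the 40 genes tested here 35 had a log2 fold change above 0 in the authors' deposited table. The share over all genes in the authors' deposited table was not computed here. The same count, 35, was found here when libraries were scaled by their totals alone. With that scaling 53.4% of all genes were above 0, against 49.3% as reported.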

How the data were processed

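Quadriceps RNA of 6 libraries was sequenced. Trizol extraction and an Illumina TruSeq RNA kit are named per the labels' protocols. The submitters' processing notes list TopHat 1.3.3, edgeR and mm10 without roles. Counter and annotation were not given in the sources used here. Raw counts per Ensembl gene were deposited by the authors for the 6 libraries. The table's log2 fold change, log2 abundance, p-value and adjusted p-value columns were also deposited by the authors, per the file headers under edgeR's column names.

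Repeated IDs (29 rows with identical counts) were merged. Genes were filtered with filterByExpr, scaled with TMM and tested two-sided with edgeR 4.0.16 (robust quasi-likelihood test, genotype alone, Benjamini-Hochberg adjustment over all 13848 genes, threshold 0.05) in R 4.3.3. The standard error is the log2 difference over the square root of F. CPM uses TMM-scaled library sizes. Lengths came from GENCODE M21 (GRCm38). In simulated data of 13848 genes for this comparison, 50 genes each were changed 1.3-fold, 1.5-fold, 2-fold and 3-fold. The test recovered 24%, 68%, 96% and 98% of them in this order, and 14 of its 157 calls were false. The changed genes were drawn only from genes above a set CPM, so the shares do not cover genes of low counts such as Psmb8. The shares also depend on how many genes were changed. Each gene was drawn on its own, so shifts that genes share within a library are not covered.

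The genes and lists were chosen with earlier results of these data known. Named were the catalytic subunits, Psme1, Psme2, Psme4, Psmf1, the 2 smallest unadjusted p in each other class, the highest level per length, and the 2 smallest p in each list of other pathway genes. Alternatives were RLE, upper-quartile and no scaling, 2 other filters, DESeq2 1.42.0, limma voom (limma 3.58.1), a replicate block, a length offset and leaving out each library. Replicate pairs differed by more than sampling noise (chi-square per gene of 3.46 to 9.57). Protein sequences were not used here.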

Additional observations from a re-analysis of the deposited data

How the results depend on the processing

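No proteasome gene and no gene of the other pathway lists was called under any of the 15 alternatives. Genes called over all genes numbered 0 as reported, 2 with DESeq2, 1 with limma voom, 19 without the filter on low counts, and 0 to 3 when 1 library was left out, the 3 without WT replicate 1. Esr1 passed without the filter (log2 difference -1.44, adjusted p = 0.000142). The number of proteasome genes above 0 ran from 26 to 35 and their median log2 difference from 0.03 to 0.10, both extremes of the median from leaving out 1 library. With 1 library left out, the class median of the cap subunits other than ATPases ran from -0.000623 to 0.11, of the ATPases from 0.01 to 0.06, of the cap assembly chaperones from -0.07 to 0.18, of the activators and inhibitor from -0.03 to 0.04, and of the immunoproteasome genes from -0.08 to 0.30. Medians of the alpha and beta subunits ran from 0.05 to 0.14 each. With the length offset the ATPase median was -0.000538. Directions turned for Psmb8 with limma voom (-0.0132) and, with 1 library left out, for Psmb8 (range -0.33 to 0.21), Psmb7 (-0.0450 to 0.0849), Psme4 (-0.0775 to 0.00306) and Psmd4 (-0.0162 to 0.0478); the cause was not tested. As raw counts, which do not correct for length, Psmb8 was 12.4% of Psmb5 in WT and 10.9% in KO, and Psmb10 7.80% of Psmb7 in WT. With merged exons as length, the median levels were 24.3 (core), 27.5 (cap) and 3.27 (immunoproteasome) CPM per kilobase. Genotypes shared replicate numbers, and the libraries numbered 2 deviated together, with a correlation of deviations of 0.22 over 10134 genes, the highest of the 9 pairs of a WT and a KO library. The correlations were -0.01 for number 1 and -0.02 for number 3, so the numbers were not taken to pair the samples. With the replicate block 0 genes were called over all genes, and 32 proteasome genes were above 0 with a median of 0.06. For Psmb8 and Psmb10, with the fewest counts among the core genes tested, 95% intervals reached a median of 0.46 log2 units either way, against 0.19 over the 40 genes.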

Other observations

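The spread between libraries was read for the proteasome genes alone and was not set against that of other genes. The coefficient of variation of CPM over 3 libraries had a median of 5.57% in WT and 7.46% in KO over the 40 genes tested. It was at or below 10% for 34 genes in WT and 26 in KO. The widest was 39.9% in KO, for Psmb8.

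The pseudogene Psmb6-ps, which copies the caspase-like subunit and was left out of the gene set, had 14, 7 and 7 counts in the WT libraries (replicates 1, 2 and 3) against 19, 9 and 9 in the KO libraries. Psmb5-ps and Psmb7-ps2 had 0 counts in all 6 libraries.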
